A study of Mus musculus with 12 samples.

Results

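Genes grouped as feedback on NF-kB output, 10 in number, were followed through bulk RNA-seq of mouse bone marrow neutrophils. The genes were Tnfaip3, Tnip1, Tnip3, Cyld, Traf1, Birc3, Zc3h12a, Zfp36, Zfp36l1 and Tnfaip2. They were chosen by name, as the rows of the gene count table whose Ensembl identifiers map to these symbols, and are 10 of the 37310 genes in the table. All 10 were among the 12917 genes that passed a filter on low counts and were tested. The 12 libraries formed 4 groups of 3, Control vehicle, Control LPS, Runx1KO vehicle and Runx1KO LPS, and each group was numbered 1 to 3 in its sample titles. LPS (lipopolysaccharide, an outer membrane component of Gram-negative bacteria that signals through Tlr4) was given at 100 ng/mL for 2 h, and vehicle cells were kept for the same 2 h. The mice were C57BL/6, and the sorted neutrophils were CD11b+, Siglec F-, F4/80- and Ly6G+. Runx1 encodes a transcription factor needed for blood cell development, and the study asks about its part in neutrophil cytokine output after Toll-like receptor stimulation. Mouse age, the Cre driver, the alleles of the Runx1KO mice and the deleted piece of Runx1 are not stated in the sources used here. For the Control material the series text speaks of LKS- cells pooled from marrow of 1 mouse that was Runx1f/f and 1 that was Runx1f/-, the latter carrying 1 inactive germline copy of Runx1, whereas the sample labels describe sorted neutrophils. Which description holds was not settled, and it bears on each comparison of the genotypes.

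NF-kB drives the inflammatory genes that follow Toll-like receptor and TNF receptor signalling, and it also switches on its own brakes. One arm of these brakes edits ubiquitin chains on signalling proteins: Tnfaip3 encodes A20, a ubiquitin-editing enzyme, Tnip1 (ABIN-1) and Tnip3 (ABIN-3) bind A20 and ubiquitin, and Cyld is a deubiquitinase of linear and K63-linked chains. Traf1 and Birc3 (cIAP2, a ubiquitin ligase) act in TNF receptor complexes. The other arm removes inflammatory mRNAs: Zc3h12a (Regnase-1) cuts stem-loops in them, and Zfp36 (tristetraprolin) and Zfp36l1 bind AU-rich elements and recruit the deadenylase that shortens the poly(A) tail. Tnfaip2 is a TNF-induced gene. Neutrophils that meet LPS are known to make such transcripts within hours.

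Promoter windows of 4 members are shown, 3 of the A20 arm that hold an NF-kB match and that of Zfp36, which holds none. RefSeq windows on GRCm38.p6 (not mm9, the build in the submitters' processing notes) were found for 10 of 10 members, 11 windows in all since Tnfaip3 has 2. Each holds the 250 bases before a transcription start, and capitals mark every match on either strand to the NF-kB consensus, AP-1 (TGANTCA), RUNX (TGTGGT), the CArG box of serum response factor, or EGR (GCGGGGGCG). The windows below are Tnfaip3 (chr10:19015411-19015660, minus strand), Tnip1 (chr11:54962941-54963190, minus strand), Cyld (chr8:88696778-88697027, plus strand) and Zfp36 (chr7:28379229-28379478, minus strand).
Tnfaip3: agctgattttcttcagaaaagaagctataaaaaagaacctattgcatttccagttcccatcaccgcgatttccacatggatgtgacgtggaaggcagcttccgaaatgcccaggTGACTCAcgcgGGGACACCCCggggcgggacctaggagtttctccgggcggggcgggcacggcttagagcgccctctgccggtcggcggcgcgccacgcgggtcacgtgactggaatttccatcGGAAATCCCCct
Tnip1: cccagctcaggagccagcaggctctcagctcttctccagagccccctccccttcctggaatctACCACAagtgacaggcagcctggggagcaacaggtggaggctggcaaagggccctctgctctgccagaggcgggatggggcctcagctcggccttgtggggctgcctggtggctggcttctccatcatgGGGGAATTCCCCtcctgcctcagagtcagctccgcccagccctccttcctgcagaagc
Cyld: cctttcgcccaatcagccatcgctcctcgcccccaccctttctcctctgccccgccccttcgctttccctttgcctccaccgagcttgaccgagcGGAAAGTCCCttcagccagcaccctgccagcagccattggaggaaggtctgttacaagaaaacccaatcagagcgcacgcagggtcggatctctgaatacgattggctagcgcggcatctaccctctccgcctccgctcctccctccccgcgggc
Zfp36: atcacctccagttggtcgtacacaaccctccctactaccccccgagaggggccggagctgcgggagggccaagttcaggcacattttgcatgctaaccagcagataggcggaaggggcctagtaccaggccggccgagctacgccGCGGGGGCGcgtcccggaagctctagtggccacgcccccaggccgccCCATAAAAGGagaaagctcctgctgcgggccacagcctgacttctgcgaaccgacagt
The Tnfaip3 window holds an AP-1 match that begins 136 bases before the start and NF-kB matches at 125 and 12 bases before it. The Tnip1 window holds 3 overlapping NF-kB matches between 58 and 47 bases before the start and a RUNX match at 187. The Cyld window has an NF-kB match at 155, and the Zfp36 window has a CArG box at 58 and an EGR match at 105, with no NF-kB match.

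NF-kB matches were present in 5 of the 10 members (Tnfaip3, Tnip1, Tnip3, Cyld and Tnfaip2), against 7.25% of the 32851 windows of the same length. AP-1 was matched in Tnfaip3 and Zfp36l1 (6.75% of windows), and RUNX in Tnip1 and Traf1 (14.1% of windows). The CArG box (1.47% of windows) and EGR (2.57% of windows) were matched in Zfp36 alone among the members. The windows of Zc3h12a and Birc3 held none of the 5 motifs. A match is a string of letters and not a measured binding site.

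Totals ran from 19023610 to 26225169 counts per library. The summed level of 11 neutrophil markers was 121290 to 193260 counts per 1000000 (CPM, scaled by TMM factors, which correct library size for composition). That of 11 monocyte and macrophage markers was 161 to 692 CPM in 11 libraries and 2043 CPM in Runx1KO LPS 3, the library with the lowest TMM factor (0.699). There, Adgre1, the gene of the F4/80 antigen used in the sort, reached 21700 counts and Csf1r 13184, while C1qa did not exceed 6 and C1qb 24 counts in any library. Runx1, counted over the whole gene, was 26.1 to 56.2 CPM in the 6 Control libraries and 43.7 to 75.4 CPM in the 6 Runx1KO libraries. A gene-level count cannot show the loss of part of a gene, so it does not check the Runx1KO label, which is used here as given. Libraries numbered 2 held 6218 to 8434 Y-linked counts and 0 Xist counts in every group, and those numbered 1 and 3 held 900 to 1624 Xist counts and at most 5 Y-linked counts. The libraries numbered 2 thus differ in sex from those numbered 1 and 3, which share 1 sex. Mouse and any shared day cannot be told apart from the number, nor sex from number 2. In each group the library numbered 2 therefore stems from other mice than those numbered 1 and 3. Which of the remaining libraries stem from different mice is not stated. The p-values rest on library-to-library spread, which may be technical in part.

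**Figure D1:**
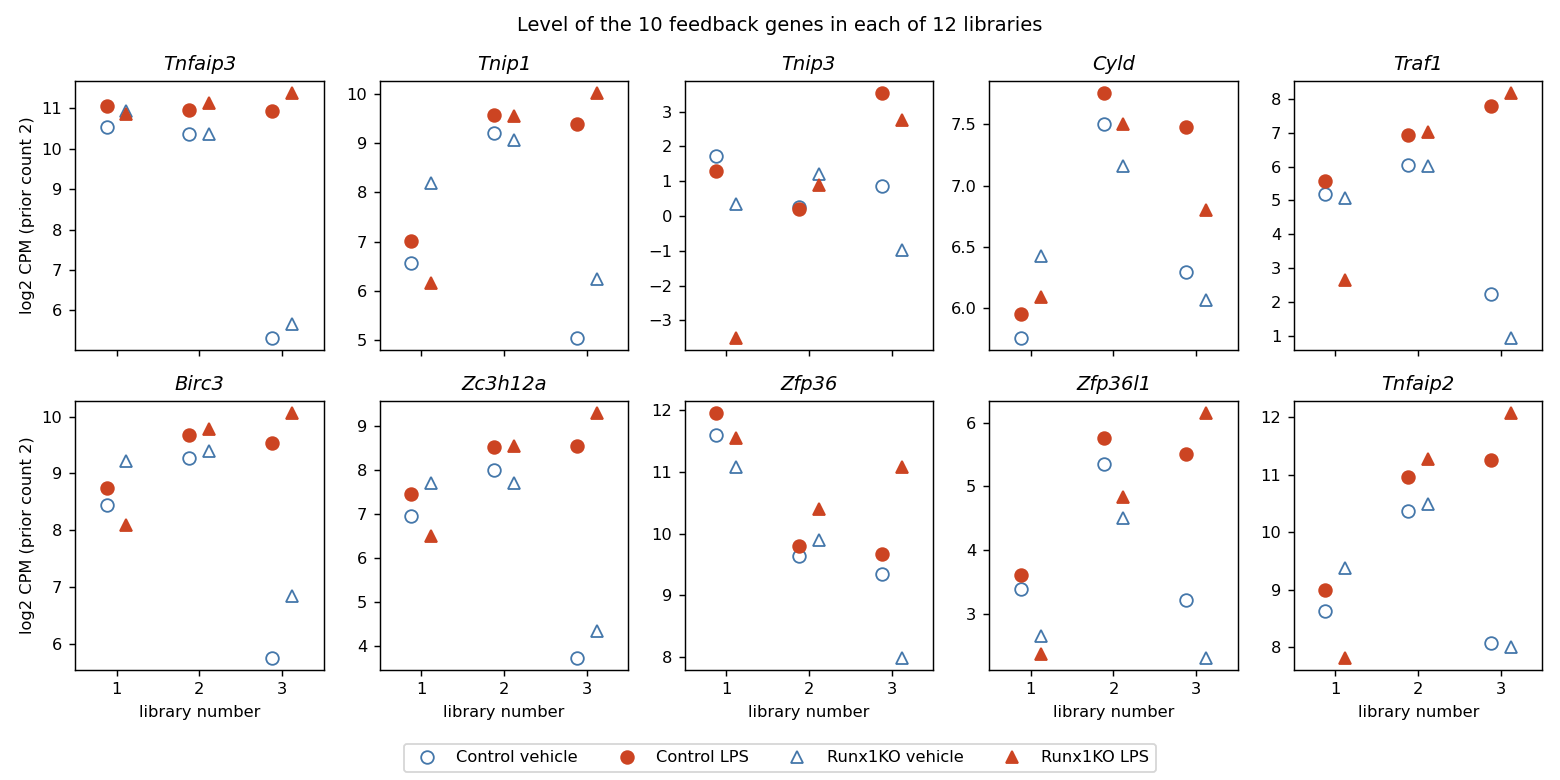
Level of each of the 10 genes (log2 CPM, prior count 2, vertical axis with its own range per panel) against the library number. Circles are Control, triangles Runx1KO, open symbols vehicle and filled symbols LPS, 1 symbol per library; Tnfaip3 is low in the vehicle libraries numbered 3, at 39.8 and 50.5 CPM, and at 1315 CPM or more in the other 10.

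Among the genes of the A20 complex, Tnfaip3 stood at 1491, 1315 and 39.8 CPM in Control vehicle libraries 1, 2 and 3. In Control LPS it stood at 2110, 1979 and 1936 CPM. Runx1KO vehicle libraries gave 1943, 1323 and 50.5 CPM, and Runx1KO LPS libraries 1857, 2236 and 2645 CPM. A20 transcript was thus already high without LPS in the libraries numbered 1 and 2 of both genotypes, and low in both vehicle libraries numbered 3. Control LPS libraries all lay above Control vehicle libraries, and in Runx1KO the 2 treatments overlapped.

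Tnip1, whose protein links A20 to its substrates, was 94.5, 587 and 32.8 CPM in Control vehicle and 130, 756 and 672 CPM in Control LPS. Its Runx1KO values were 291, 536 and 75.2 CPM in the vehicle group, and the LPS group had 71.2, 749 and 1033 CPM. Tnip1 was low in both vehicle libraries numbered 3 and also in Control 1 of either treatment and in Runx1KO LPS 1, which lay below its vehicle partner.

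Tnip3 was scarce, at 76, 28 and 41 counts in Control vehicle and 47, 21 and 243 counts in Control LPS. The Runx1KO vehicle libraries held 29, 50 and 12 counts, and the Runx1KO LPS libraries 0, 39 and 118 counts. The 0 in Runx1KO LPS 1 allows a level of up to 0.128 CPM (3 counts, counting error only). Its 2 highest libraries were the LPS libraries numbered 3, at 11.4 CPM in Control and 6.63 CPM in Runx1KO.

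Cyld varied least, from 54.1 CPM in Control vehicle 1 to 215 CPM in Control LPS 2, a 3.98-fold range. It was 54.1, 181 and 78.4 CPM in Control vehicle and 61.8, 215 and 178 CPM in Control LPS, and 86.0, 143 and 66.9 CPM in Runx1KO vehicle and 68.0, 181 and 112 CPM in Runx1KO LPS. The libraries numbered 2 were the highest in each of the 4 groups.

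Of the TNF receptor complex genes, Traf1 had the widest range, 158-fold, from 1.82 CPM in Runx1KO vehicle 3 to 288 CPM in Runx1KO LPS 3. It was 36.1, 66.7 and 4.61 CPM in Control vehicle and 48.0, 123 and 222 CPM in Control LPS, and 33.4, 65.3 and 1.82 CPM in Runx1KO vehicle and 6.12, 130 and 288 CPM in Runx1KO LPS. Both vehicle libraries numbered 3 were low, both LPS libraries numbered 3 were high, and Runx1KO LPS 1 was lower than Runx1KO vehicle 1. Birc3 was 350, 616 and 53.9 CPM in Control vehicle and 431, 816 and 739 CPM in Control LPS, and 595, 673 and 115 CPM in Runx1KO vehicle and 272, 878 and 1074 CPM in Runx1KO LPS. Birc3 was likewise lowest in the vehicle libraries numbered 3 of both genotypes, and its range was 19.9-fold.

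Among the mRNA decay genes, Zc3h12a was 124, 254 and 13.2 CPM in Control vehicle and 176, 369 and 376 CPM in Control LPS. Runx1KO vehicle libraries were at 209, 208 and 20.01 CPM, and Runx1KO LPS libraries at 90.1, 372 and 631 CPM. The Regnase-1 transcript was thus lowest in the vehicle libraries numbered 3 and highest in the LPS libraries numbered 3, with Runx1KO LPS 1 below its vehicle partner.

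Zfp36 was ordered otherwise, at 3113, 794 and 650 CPM in Control vehicle and 3983, 887 and 812 CPM in Control LPS. For Runx1KO the vehicle values were 2154, 948 and 253 CPM and the LPS values 2998, 1345 and 2153 CPM. Tristetraprolin transcript was highest in the libraries numbered 1 of all 4 groups. LPS libraries exceeded vehicle libraries of the same number in 6 of 6 pairs, and the share of all genes that did so was not counted. Only Runx1KO LPS 3 stood far above its vehicle partner; in Control the pair numbered 3 differed by 0.32 on the log2 scale.

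Zfp36l1 was 10.4, 40.7 and 9.22 CPM in Control vehicle and 12.0, 54.1 and 45.5 CPM in Control LPS. Runx1KO libraries had 6.19, 22.6 and 4.87 CPM without LPS, and 5.05, 28.5 and 71.1 CPM after it. Libraries numbered 1 were low in all 4 groups, unlike those of its relative Zfp36. Tnfaip2 was 395, 1327 and 270 CPM in Control vehicle and 514, 1990 and 2459 CPM in Control LPS, and 667, 1449 and 256 CPM in Runx1KO vehicle and 226, 2473 and 4333 CPM in Runx1KO LPS. Its highest library was Runx1KO LPS 3 and its lowest Runx1KO LPS 1, a 19.2-fold range within 1 group.

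LPS and vehicle were first compared over the 3 libraries of a group. In Control the fitted LPS against vehicle log2 fold change was above 0 for 10 of 10 members and for 46.3% of all genes tested. The members' median was 1.10 beside -0.02 over all genes tested. In Runx1KO the fold change was above 0 for 10 of 10 members (52.6% of all genes), with a median of 1.09 beside 0.03. With edgeR's quasi-likelihood test and Benjamini-Hochberg adjustment over all genes, 0 of 10 members passed an adjusted p of 0.05 in either genotype, and the share of all genes called was 0% in Control and 0% in Runx1KO. At an unadjusted p below 0.05 edgeR gave 78 genes in Control and 676 in Runx1KO, 0 of them members; DESeq2 called 0 and 1 genes and limma-voom 0 and 0, again with 0 members. Without the libraries numbered 3 the members' median was 0.39 in Control and 0.17 in Runx1KO.

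Traf1 had the largest fitted values, 1.87 ± 1.30 (log2 fold change ± SE) in Control and 2.07 ± 1.31 in Runx1KO. Tnfaip3 stood at 1.08 ± 1.09 in Control and 1.02 ± 1.09 in Runx1KO, and Zc3h12a at 1.23 ± 0.99 and 1.32 ± 0.99. Zfp36 stood at 0.32 ± 0.83 in Control and 0.95 ± 0.84 in Runx1KO, and Cyld at 0.54 ± 0.56 and 0.28 ± 0.56. The other 5 members ranged from 0.89 to 1.32 in Control (Zfp36l1 to Tnfaip2) and from 0.69 to 1.64 in Runx1KO (Birc3 to Zfp36l1). The edgeR adjusted p of the 10 members was 1 in Control and 0.873 to 0.970 in Runx1KO. The differences thus did not exceed the spread between libraries, which in this fit includes that between the numbers. With a term for number added (a replicate block), 0 members passed in either genotype. In that fit 1 member, Zfp36 in Runx1KO, had an unadjusted edgeR p below 0.05 (0.0185, adjusted p = 0.555), as had 1145 of all genes. All 3 LPS libraries lay above all 3 vehicle libraries for 1 of 10 members in Control (Tnfaip3), where 2.84% of all genes did so, and for 0 of 10 in Runx1KO, where 3.51% did.

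**Figure D2:**
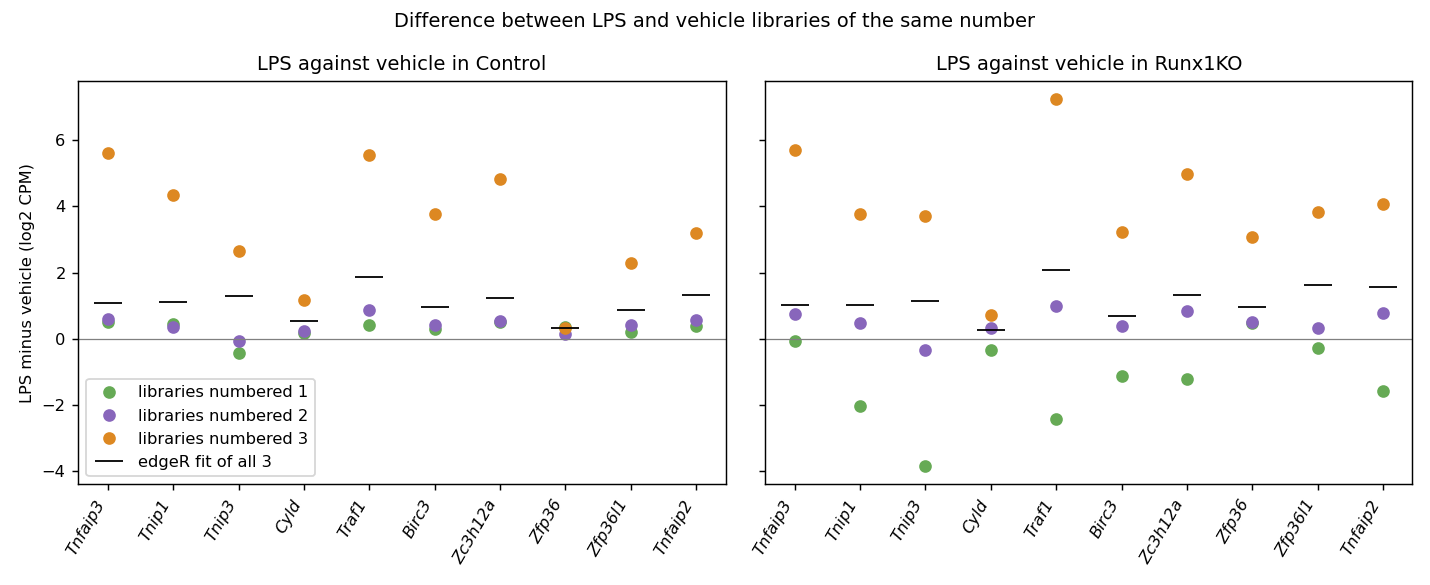
LPS minus vehicle difference in log2 CPM (vertical axis) of each gene for libraries of the same number (coloured points), with the fitted fold change over all 3 (black bars), in Control (left) and Runx1KO (right). The points of the libraries numbered 3 lie highest for 9 of 10 genes in Control, all but Zfp36, and for 10 of 10 in Runx1KO.

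Pairs of the same number showed where the spread lay. In the libraries numbered 3, LPS was at least 2-fold above vehicle for 9 of 10 members in Control (all but Zfp36; 9.41% of all genes) and for 9 of 10 in Runx1KO (all but Cyld; 16.9% of all genes). Such a pair difference was seen for 0 of 10 members in Control numbered 1 (2.25% of all genes) and 0 of 10 in Control numbered 2 (3.27%). In Runx1KO it was seen for 0 of 10 in the pair numbered 1 (5.81%) and 0 of 10 in the pair numbered 2 (5.67%). The members' median difference was 0.37, 0.41 and 3.48 in Control pairs 1, 2 and 3, and -1.17, 0.49 and 3.81 in Runx1KO. These pairs carry no replicate and no test.

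A model with a mean for each treatment and number and a term for genotype was then fitted, chosen after these levels had been seen. The 2 genotypes served as the 2 libraries of each mean. The model's p-values describe a pattern already seen and are not an independent test of it. In the libraries numbered 3, 7 of 10 members rose with LPS (edgeR's quasi-likelihood test, adjusted p below 0.05), beside 6.73% of all genes that rose. A20 (Tnfaip3) rose 50.6-fold (log2 fold change 5.66 ± 0.32 SE, adjusted p = 1.55e-05), Traf1 87.9-fold (6.46 ± 0.78, 0.000845) and Regnase-1 (Zc3h12a) 30.3-fold (4.92 ± 0.46, 0.000257). Tnip1 rose by 4.02 ± 0.54, Tnfaip2 by 3.67 ± 0.46, Birc3 by 3.46 ± 0.40 and Zfp36l1 by 3.22 ± 0.41 on the log2 scale.

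The 3 other members missed the threshold in that edgeR comparison, namely Tnip3 (3.21 ± 1.03, adjusted p = 0.0819), Zfp36 (1.72 ± 0.54, 0.0752) and Cyld (0.99 ± 0.30, 0.0689). DESeq2 called Cyld and Zfp36 (adjusted p = 0.0186 and 0.00358), and limma-voom called Tnip3 (0.0301). The share of all genes called by these other tools in this comparison was not counted. Zfp36 reached an edgeR adjusted p of 0.0246 without Control vehicle 3 and 0.0102 without Control LPS 3. Leaving out any 1 of the 12 libraries left 7 or 8 members called; where this left 1 library in an arm, that library was taken to vary like the others. The monocyte and macrophage list also moved in these libraries, from 212 to 597 CPM in Control and from 478 to 2043 CPM in Runx1KO. Without Runx1KO LPS 3 the count was 7 and the Tnfaip3 value 5.51.

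In the libraries numbered 1, 0 of 10 members passed edgeR's test for LPS against vehicle (0% of all genes), with Tnfaip3 at 0.23 ± 0.26, Zfp36 at 0.41 ± 0.51 and Tnip3 at -1.12 ± 1.02; the Tnip3 value was -8.33 without Control LPS 1 and -0.06 without Runx1KO LPS 1, the library with 0 counts. In those numbered 2, 0 of 10 passed (0% of all genes), with Tnfaip3 at 0.67 ± 0.26, Traf1 at 0.95 ± 0.61 and Tnip3 at -0.27 ± 1.01. At an unadjusted p below 0.05 there were 0 members in number 1 and 1 in number 2 (Tnfaip3) by edgeR. DESeq2 and limma-voom called 0 members in either. The share of all genes was not counted for these unadjusted and other-tool results, so they are not read as results about the members. The members' medians were -0.31 and 0.41, beside 3.56 in the libraries numbered 3. That the LPS response differs between the numbers was tested in the same fit and passed for 7 of 10 members (1.87% of all genes). These were Tnfaip3, Tnip1, Traf1, Birc3, Zc3h12a, Zfp36l1 and Tnfaip2, with edgeR adjusted p from 0.000228 (Tnfaip3) to 0.0213 (Zfp36l1). The vehicle libraries numbered 3 decide that count, which was 2 without Control vehicle 3 and 1 without Runx1KO vehicle 3.

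**Figure D3:**
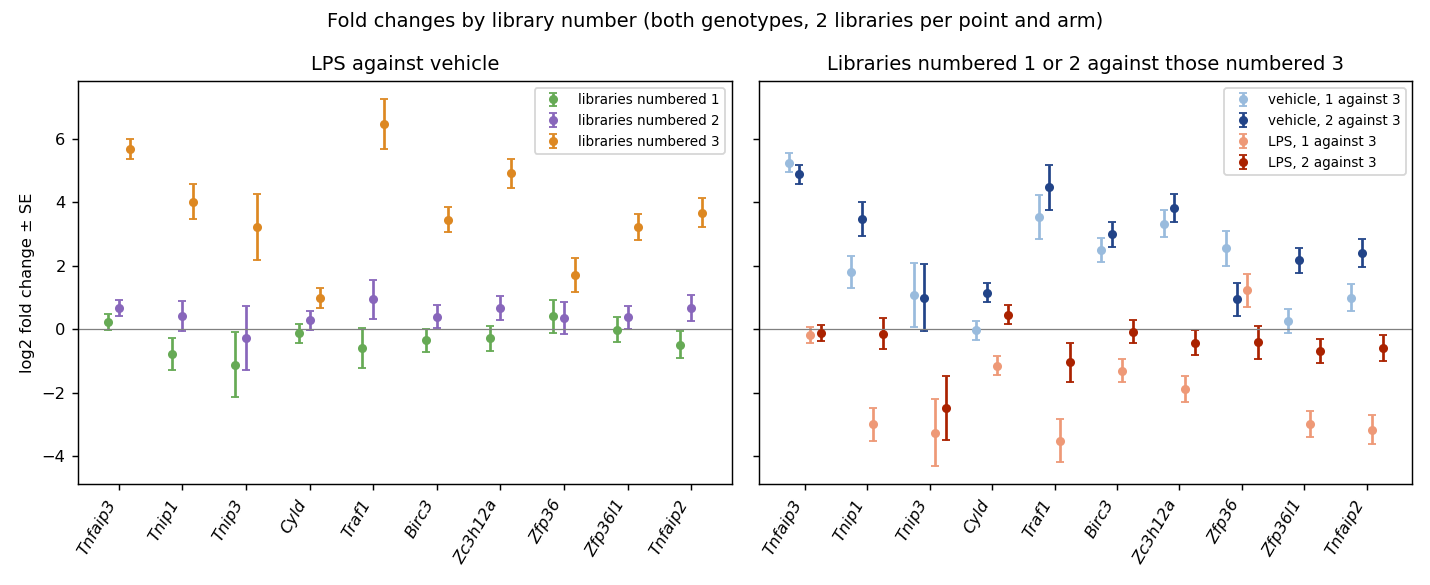
Log2 fold changes ± SE from the fit by library number, with both genotypes as the 2 libraries of each arm, for LPS against vehicle (left) and for libraries numbered 1 or 2 against those numbered 3 (right). Tnfaip3 stands at 5.66 for LPS in the libraries numbered 3 against 0.23 and 0.67 in those numbered 1 and 2.

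The vehicle libraries themselves differed by number, also between numbers 1 and 3, which share 1 sex. Those numbered 1 were higher than those numbered 3 for 5 of 10 members (5.5% of all genes, either direction), namely Tnfaip3, Traf1, Birc3, Zc3h12a and Zfp36. Those numbered 2 were higher than those numbered 3 for 7 of 10 (2.89% of all genes), namely Tnfaip3, Tnip1, Traf1, Birc3, Zc3h12a, Zfp36l1 and Tnfaip2. Tnfaip3 was 38.0-fold higher in vehicle libraries 1 and 29.4-fold higher in vehicle libraries 2 than in vehicle libraries 3 (edgeR adjusted p = 3.41e-05 and 2.06e-05). Zfp36 was 5.84-fold higher in number 1 than in number 3 (edgeR adjusted p = 0.0242), while its difference of number 2 from number 3 (0.95 ± 0.52 log2, adjusted p = 0.367) did not pass. The first count was 3 without Control vehicle 1, 2 without Runx1KO vehicle 1 and 3 without Runx1KO vehicle 3, and the second was 4 without Control vehicle 2, 4 without Runx1KO vehicle 2 and 3 without Runx1KO vehicle 3. Marker lists of other cells differed in these libraries too, and their part in the result was not tested. Summed over 6 genes, progenitor markers were 54.3, 58.2 and 197 CPM in Control vehicle 1, 2 and 3 and 81.7, 137 and 223 CPM in Runx1KO vehicle, highest in number 3. Erythroid markers were 633, 214 and 159 CPM in Control vehicle and 990, 1497 and 117 CPM in Runx1KO vehicle, lowest in number 3. Both comparisons share the vehicle libraries numbered 3 with the LPS comparison above, so the 3 are not separate evidence.

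With LPS, the libraries numbered 1 were lower than those numbered 3 for 7 of 10 members (16.6% of all genes, either direction). These were Tnip1, Cyld, Traf1, Birc3, Zc3h12a, Zfp36l1 and Tnfaip2, and 4 of 10 passed without Runx1KO LPS 1. Tnfaip2 had a log2 fold change of -3.15 ± 0.45 and Tnip1 of -2.99 ± 0.52. Tnfaip3 stood at -0.19 ± 0.26 and Zfp36 at 1.23 ± 0.52, and neither passed. LPS libraries 2 and 3 did not differ for any member past the threshold (0 of 10, beside 0.0852% of all genes). By edgeR 1 member, Tnip3, had an unadjusted p below 0.05, a level at which the share of all genes was not counted. A20 transcript thus reached 1857 to 2645 CPM in all 6 LPS libraries, whereas its partner Tnip1 ranged from 71.2 to 1033 CPM in them.

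As a share of each gene's variation over the 12 libraries, number took 71.9% for Cyld, 62.5% for Zfp36 and 33.0% for Tnfaip3, and treatment 8.18, 13.6 and 29.2%. Treatment took a larger share than number for Traf1 (23.4 against 15.5%) and Zc3h12a (28.7 against 18.7%). The rest of each gene's variation includes any difference of the LPS response between the numbers and was not split further. That rest was the largest part for Traf1, Zc3h12a and Tnip3, among others. The share of number was 14.4% for Tnip3 and 24.3% for Birc3, and for the other members it was between 35.8 and 43.1%. Genotype took at most 12.3% for any member, that of Tnip3. Over all genes tested the medians were 32.7% for number, 4.72% for treatment and 7.84% for genotype.

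No member passed the test between the libraries labelled Runx1KO and Control, whose Runx1 counts did not check the label. With vehicle 0 of 10 members passed edgeR's test, where 0.952% of all genes did, and with LPS 0 of 10, where 0.921% did. At an unadjusted p below 0.05 edgeR gave 0 members in both, among 1006 genes with vehicle and 1311 with LPS. DESeq2 called 386 and 401 genes and limma-voom 123 and 105, again with 0 members. With vehicle the fitted values were above 0 for 5 of 10 members and for 50.3% of all genes. The 5 members above 0 were Tnfaip3, Tnip1, Birc3, Zc3h12a and Tnfaip2. The 5 below 0 were Tnip3, Cyld, Traf1, Zfp36 and Zfp36l1, and the members' median was 0.04. Tnfaip3 stood at 0.22 ± 1.07, Tnip3 at -0.67 ± 1.22 and Zfp36l1 at -0.85 ± 0.92. Zfp36l1 was lower in Runx1KO than in Control within each vehicle pair, by -0.74, -0.85 and -0.91 on the log2 scale in pairs 1, 2 and 3. The share of all genes with the same sign in each pair was not counted. Leaving out libraries moved the fitted Zfp36l1 value between -1.86 and 0.19.

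With LPS the fitted genotype values were above 0 for 7 members (52.6% of all genes) and below 0 for Tnip3, Cyld and Zfp36l1. The members' median was 0.16 (-0.03 scaled by library size alone). Tnfaip3 stood at 0.16 ± 1.07, Tnfaip2 at 0.50 ± 0.95 and Tnip3 at -0.84 ± 1.20. The edgeR adjusted p was at least 0.910 for each member in both genotype comparisons. The groups of 3 did not separate for any member, 0 of 10 with vehicle and 0 of 10 with LPS, where 13.2 and 13.3% of all genes separated. Within pairs with LPS the members' median was -0.92, 0.09 and 0.58 for numbers 1, 2 and 3, so that Runx1KO lay below Control in the pair numbered 1 and above it in the pair numbered 3. Leaving out the libraries numbered 3 turned the median to -0.15.

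The difference between the LPS responses of Runx1KO and Control passed edgeR's test for 0 of 10 members (0% of all genes). At an unadjusted p below 0.05 edgeR gave 77 genes, 0 of them members, and DESeq2 and limma-voom each called 0 genes. Zfp36l1 stood at 0.75 ± 1.29 and Zfp36 at 0.64 ± 1.18, both with a larger fitted response in Runx1KO, and Tnfaip3 at -0.06 ± 1.52. The standard errors of these differences ran from 0.78 (Cyld) to 1.78 (Traf1) on the log2 scale, which limits what could be detected.

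The other genes of both pathways were given as lists, chosen with earlier results of these data known. Among 24 genes of the ubiquitin machinery of TNF receptor and Toll-like receptor signalling, 0 passed in any of the 5 group comparisons. Their LPS medians were 0.04 in Control and 0.06 in Runx1KO. In the libraries numbered 3, 3 of 24 rose with LPS and 0 fell (median 0.24), by edgeR's adjusted p, where 6.73% of all genes rose and 2.66% fell; of the 10 feedback genes 0 fell. N4bp1, a ubiquitin-binding restraint on NF-kB, rose by 3.51 ± 0.44, Traf3, an adaptor of TNF receptors, by 1.93 ± 0.47, and Rnf31 (HOIP), the ligase of linear chains, by 1.02 ± 0.22. N4bp1 went from 82.3 to 723 CPM in Control 3 and from 88.8 to 1266 CPM in Runx1KO 3.

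Of 33 genes of the mRNA decay machinery tested (34 listed), 4 rose and 2 fell with LPS in the libraries numbered 3 (6.73% and 2.66% of all genes), with a median of -0.07. Zc3h12c, a relative of Zc3h12a, rose by 5.69 ± 0.51. Mapkapk2, a kinase that phosphorylates tristetraprolin, rose by 3.06 ± 0.44, Btg2, which recruits deadenylase, by 1.56 ± 0.35, and Pan2, a deadenylase, by 1.06 ± 0.25. Zfp36l2, of the tristetraprolin family, fell from 338 to 63.0 CPM in Control 3 and from 246 to 22.2 CPM in Runx1KO 3 (log2 fold change -2.86 ± 0.34, edgeR adjusted p = 0.000746). Cnot6l, a deadenylase, fell by 0.84 ± 0.23 on the log2 scale. Within this family Zfp36l1 and Zfp36l2 thus changed in opposite directions in the same libraries.

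Of 18 transcripts known as targets of these decay factors, 17 rose with LPS in the libraries numbered 3 (6.73% of all genes), with a median of 5.31. Fos was the other, at -2.19 ± 0.97 (edgeR adjusted p = 0.205). Csf2, Il10, Il12b, Il6 and Ccl2 were scarce, with mean log2 CPM from -1.79 (Csf2) to 0.96 (Ccl2). The median lay between the values of Il12b (5.30) and Ccl2 (5.32), and so rests on scarce transcripts. Tnf, a classic tristetraprolin target, went from 28.2 to 1927 CPM in Control 3 and from 73.0 to 8859 CPM in Runx1KO 3. Of 9 NF-kB subunits and inhibitors, 9 rose in the libraries numbered 3 (6.73% of all genes), with a median of 4.03, among them Nfkbia (4.30 ± 0.37). In both lists 0 genes passed in the 5 group comparisons, and the decay targets had LPS medians of 1.25 in Control and 1.95 in Runx1KO. In the group comparisons the largest values by list, among genes whose mean log2 CPM was 2 or more, were N4bp1 (1.06 and 1.22 in Control and Runx1KO), Zc3h12c (1.36 and 1.47), Ccl3 (2.14 and 3.25) and Nfkb2 (1.47 and 1.52), none past the threshold by edgeR.

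**Figure D4:**
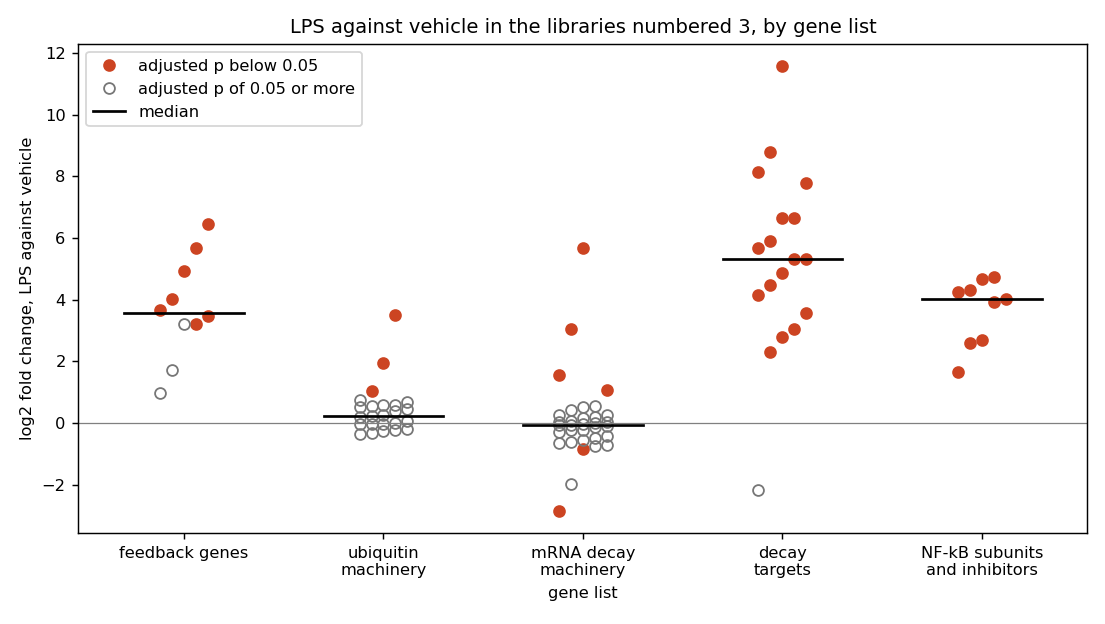
Log2 fold change of LPS against vehicle in the libraries numbered 3 (vertical axis) for the 10 feedback genes and 4 gene lists, 1 point per gene, filled where the edgeR adjusted p is below 0.05, with the median as a line. The feedback genes have a median of 3.56, the ubiquitin machinery 0.24, the decay machinery -0.07, the decay targets 5.31 and the NF-kB genes 4.03.

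Likeness of pattern was described as the root mean square difference in log2 CPM over the 12 libraries after centring each gene, among 7611 genes. Nearest to Tnfaip3 were Nfkbiz (0.27), an atypical IkB protein, Dusp2 (0.39), a phosphatase of MAP kinases, Ccrl2 (0.53), Nfkbia (0.57) and Gadd45b (0.60), where the median gene lay at 2.06. Nearest to Zc3h12a were Nfkbie (0.22), Casp4 (0.38), Dusp16 (0.39), Pim1 (0.42) and its relative Zc3h12c (0.42), with a median of 1.68 over all genes. Zfp36 had other neighbours, namely Dusp1 (0.31), Rabgef1 (0.32), Taf7 (0.37), Ier3 (0.49) and Csrnp1 (0.51), with a median of 1.20. Among the members the closest pairs were Birc3 with Zc3h12a (0.45) and Tnip1 with Tnfaip2 (0.48), and the most distant were Tnfaip3 with Tnip3 (2.35). These likenesses were measured in libraries that share their numbers and treatments.

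Annotated genes overlap 5 of the 10 members on the opposite strand, namely Tnip1, Cyld, Zfp36, Zfp36l1 and Tnfaip2. Only 1 of the overlapping genes, Gm12230 in Tnip1, has a row in the table, with at most 100 counts. The strand setting of the counting is not known from the sources used here, so reads of such partners and of the members cannot be told apart. In these bulk samples, fewer cells of a type and less RNA per cell cannot be told apart either.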

How the data were processed

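The authors' table holds whole-number read counts per gene, not normalized, 1 column for each of the 12 libraries, which were matched to samples by title; 0 further columns were left out. The submitters' processing notes name STAR 2.6.0a, featureCounts and the build mm9; annotation release and strand setting are not stated in the sources used here. Symbols were matched by Ensembl identifier (32620 of 37310 genes).

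Genes kept by filterByExpr (12917) were scaled by TMM and tested with edgeR 4.0.16 (R 4.3.3), quasi-likelihood test, 4 groups in 1 model, no replicate block, Benjamini-Hochberg adjustment over all genes tested, threshold 0.05. Log2 CPM used a prior count of 2. Both models were run on simulated counts with the same spread setting for all genes. The simulation held no difference between vehicle libraries by number, so it does not show how either model handles one. Alternatives were RLE factors, library size alone, no filter, DESeq2 1.42.0, limma-voom (3.58.1), the block and leaving out libraries. The fit by library number and its alternatives were added after seeing the data. The 10 genes and all lists were chosen with earlier results of these data known. The rule named all members, list genes past the threshold, the 2 list genes with the largest LPS values among those with mean log2 CPM of at least 2, and the 5 nearest genes of 3 members; the text shows some of these.

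No 2 libraries of a group agreed within sampling noise (lowest chi-square per degree of freedom 68.3). Same-numbered libraries deviated together, with correlations of 0.394 to 0.667 for LPS against vehicle in Control, 0.374 to 0.479 between genotypes with vehicle and 0.429 to 0.565 with LPS, which meets the rule for pairing. For LPS against vehicle in Runx1KO they were 0.314, 0.537 and 0.00575, which does not. Marker lists were summed per library. The listed markers Siglec5 and Hbb-b1 were not matched by symbol. Summed levels were 4.59 to 24.2 CPM for dendritic cells, 1.16 to 12.4 for eosinophils, 0.0405 to 24.2 for basophils and mast cells, 7.49 to 49.8 for B cells, 2.16 to 49.9 for T and NK cells, 1.52 to 43.0 for platelets, 117 to 1715 for erythroid cells and 35.8 to 223 for progenitors.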

Additional observations from a re-analysis of the deposited data

Results flagged for a closer look

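In the fit by number, the response to LPS differed between the library numbers for 7 of the 10 genes by edgeR's quasi-likelihood F test. That fit was chosen after the levels had been seen, so its p-values describe a pattern already seen. The adjusted p was 0.000228 for Tnfaip3, 0.00545 for Zc3h12a, 0.0131 for Birc3, 0.0131 for Traf1, 0.0167 for Tnip1, 0.0167 for Tnfaip2 and 0.0213 for Zfp36l1. In each of these genes the LPS and vehicle libraries numbered 3 lay farther apart than those numbered 1 or 2, in both genotypes. The count rested on the vehicle libraries numbered 3 and was 2 without Control vehicle 3 and 1 without Runx1KO vehicle 3. The cause of the high vehicle levels in the libraries numbered 1 and 2 was not tested.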

How the results depend on the processing

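No member passed in any of the 5 group comparisons under any alternative run (edgeR with other factors or no filter, DESeq2, limma-voom, the replicate block, libraries left out). Single-gene values that turned sign, none of them past the threshold and the cause not tested, were Cyld with LPS in Runx1KO under library size alone (-0.0402), Tnip3 with LPS in Runx1KO under limma-voom (-0.90), and Tnfaip2 between genotypes with LPS under limma-voom (-0.0135). The members' median between genotypes with LPS (0.16) was -0.03 under library size alone and -0.07 under limma-voom, and their median difference of responses (0.01) was -0.29 under either, -0.04 with no filter and -0.02 with the replicate block. With the replicate block the Tnfaip3 difference of responses was 0.0772; the block changed no member's call, and over all genes it moved the calls between genotypes from 123 to 315 with vehicle and from 119 to 302 with LPS. In the libraries numbered 3, 7 to 10 members were called over all alternatives. The share of all genes that rose was 6.73% in the main edgeR fit and was not counted under the alternatives. A larger member count there may thus go with more calls over all genes.

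Leaving out libraries gave these ranges of log2 fold change, the cause not tested. With LPS in Control, Tnip3 ran from -0.33 to 2.17 and Zfp36 from -0.83 to 1.39. With LPS in Runx1KO, Cyld ran from -0.17 to 0.65, Tnip3 from -0.97 to 2.05, Tnip1 from -0.0271 to 1.75 and Birc3 from -0.16 to 1.27. Between genotypes, Tnfaip3 ran from -0.47 to 0.78 and Zfp36l1 from -1.86 to 0.19 with vehicle, and Tnip3 from -2.50 to 0.70 and Tnfaip2 from -0.30 to 1.04 with LPS. The difference of responses ran from -0.62 to 0.63 for Tnfaip3, -0.31 to 1.77 for Zfp36l1 and -0.44 to 1.74 for Zfp36. In the libraries numbered 1 Tnfaip3 ran from -0.0379 to 0.44, and Tnip3 from -8.33 to -0.06, and in those numbered 2 Tnip3 from -1.58 to 1.26. Members called ran from 1 to 8 for the difference between numbers, 2 to 6 for vehicle 1 against 3, 3 to 8 for vehicle 2 against 3, and 4 to 7 for LPS 1 against 3. Tnip3, with 0 to 243 counts per library, rests on the fewest counts of the members.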
